A study of Mus musculus with 14 samples.

Results

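The genes described here are 34 mouse genes of haematopoietic stem and progenitor cells, which were listed by name for their known roles and matched by symbol to the gene identifiers of the spleen count table, where all 34 of 49315 genes were found. In the ovary table, 33 of them were among its 18603 genes and *Slamf1* was not. Poly(A) RNA was sequenced from spleens of 4 WT and 4 L2-cKO pups and from ovaries of 3 WT and 3 L2-cKO females, with 1 animal per library. L2-cKO animals are Zfp36l2-/-;CMV-Cre, in which *Zfp36l2* was lost by recombination of loxP sites around its exon 2, and WT animals are littermates with both intact copies of *Zfp36l2*; both genotypes carried the Tg.CMV-Cre transgene. The CMV promoter drives Cre in all tissues from the early embryo, so the gene was absent from the blood-forming cells and from the cells around them alike. The labels give no ages. In the study, L2-cKO pups died early in life, spleens were profiled in pups soon after birth, and ovaries came from age-matched animals. The study describes the spleens as age-matched pairs, and the labels do not say which animals make up a pair. By the labels, the WT spleens were from 2 females and 2 males and the L2-cKO spleens from 1 female and 3 males, and L2-cKO spleen 3 and L2-cKO ovary 1 came from the same animal. The labels call the spleen material an organoid; the study describes dissected spleens, and it was taken as such.

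Haematopoietic stem cells sit at the top of the blood lineage and give rise, through progenitors of shrinking potential, to red cells, platelets, granulocytes, macrophages and lymphocytes. In the newborn mouse the spleen is still a site of blood formation, so a whole spleen holds stem cells, progenitors and large numbers of maturing cells. Stem cells depend on signals from surrounding stromal and endothelial cells, of which stem cell factor (the product of *Kitl*, acting on the receptor tyrosine kinase Kit) is the best known, and their identity is held by a set of transcription factors that includes the Hox cluster genes, *Meis1*, *Hlf*, *Mecom* and *Myb*. ZFP36L2, the product of the deleted gene, binds AU-rich elements in the 3′UTRs of mRNAs and promotes their decay. Many of these genes are not restricted to stem cells: *Kit* also marks mast cells, oocytes and interstitial cells, *Mecom*, *Erg*, *Cd34*, *Procr* and *Cd93* are also endothelial, and *Spi1*, *Cebpa* and *Gfi1* also act in myeloid cells. In a bulk tissue, fewer cells of a type and less RNA per cell cannot be told apart.

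Because the deleted protein binds AU-rich elements, the 3′UTR of each gene (the longest one annotated in GENCODE mouse release 21, GRCm38) was searched, on the mRNA strand only and with overlapping matches counted, for the 7-mer UAUUUAU and for the 5-mer AUUUA that lies inside it. At least 1 7-mer was present in 17 of the 34 genes, against 29.5% of the 14227 spleen-tested genes with an annotated 3′UTR. At least 2 were present in 7 of the 34 (20.6%), against 10.5% of those genes, and the 5-mer was present in 29 (85.3%), against 69.9%. The median 3′UTR was 1636 nt in the 34 genes and 1331 nt in all of those genes, and the shares were not adjusted for length, a longer 3′UTR having more places for a match. Of the 3 genes that were higher in L2-cKO spleen at an adjusted p below 0.05, *Kitl* and *Mllt3* held the 7-mer 3 times each and *Mecom* did not hold it. Of the 8 that were lower, *Cdk6* held it 2 times and *Hoxa7* and *Gfi1* 1 time each, and *Kit*, *Slamf1*, *Adgrg1*, *Hoxa9* and *Myb* did not hold it. Among the 23 that passed in neither direction, 12 held it (52.2%). Of these, *Etv6* held it 3 times and *Hlf*, *Bcl11a* and *Tet2* 2 times each. The sites of *Kitl* and *Mllt3* are shown because these genes passed as higher and hold several copies, although L2-cKO spleen 4 lay inside the WT range of *Mllt3*. Those of *Cdk6*, *Hoxa7* and *Gfi1* are shown because the motif was also found in genes that were lower. Each is a window of 23 bases, 5′ to 3′ on the mRNA, with the 7-mer in capitals. In GRCm38 they lie at chr10:100097947-100097969, chr10:100099717-100099739, chr10:100099849-100099871 on the plus strand for *Kitl*, at chr4:87773623-87773645, chr4:87773042-87773064, chr4:87770533-87770555 on the minus strand for *Mllt3*, at chr5:3528499-3528521, chr5:3530826-3530848 on the plus strand for *Cdk6*, at chr6:52215035-52215057 on the minus strand for *Hoxa7* and at chr5:107716688-107716710 on the minus strand for *Gfi1*, each within the 3′UTR of the gene.
Kitl site 1: acuugauuUAUUUAUcugguagu
Kitl site 2: aucaaaugUAUUUAUggagucua
Kitl site 3: aaggugacUAUUUAUgauccuag
Mllt3 site 1: aacugaucUAUUUAUuaccacau
Mllt3 site 2: uuugaaucUAUUUAUuagugagc
Mllt3 site 3: uauuccuaUAUUUAUauauauau
Cdk6 site 1: auguauauUAUUUAUugcuaagc
Cdk6 site 2: aauuuaugUAUUUAUugucuggu
Hoxa7 site 1: aaauaauaUAUUUAUuccaaagc
Gfi1 site 1: cauaaucaUAUUUAUuagaaugu
A match of these letters describes the annotated sequence and was not tested as a binding site.

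Total counts per spleen library were 39138010 to 45167464, and the reads recovered from the ovary values were 31052510 to 44270070 per library. The deleted gene was at 5.91% of its WT mean in L2-cKO spleens, with normalized counts of 278 to 405 against 4362 to 7394, and at 19.1% in L2-cKO ovaries. In both organs the counts cover the whole gene and not only the deleted exon, and the source of the remaining reads was not tested. Markers of both labelled organs were detected: *Zp3*, *Gdf9*, *Ddx4*, *Amh* and *Foxl2*, of oocytes and granulosa cells, had counts per library total (CPM) of 62.8 to 842 in the ovaries and at most 4.17 in the spleens. *Tlx1*, *Cd79a*, *Spic* and *Hba-a1*, of splenic mesenchyme, B cells, red pulp macrophages and red cells, had 31.4 to 22447 in the spleens. In the ovaries *Cd79a* and *Spic* had at most 1.63, and *Tlx1* was not in the ovary table. *Hba-a1* had 34.2 to 136 in the ovaries, against 10525 to 22447 in the spleens. Summed markers of pancreatic acinar cells, which lie next to the spleen, were 1639 to 23382 in WT and 1261 to 2192 in L2-cKO spleens, with WT spleens 1 and 4 highest. For the 34 genes, L2-cKO spleen 4 gave the top value among L2-cKO spleens 26 times, where it did so for 43.1% of all genes tested, and L2-cKO spleen 3, the female of the group, gave the bottom value 23 times (37.1% of all genes). WT spleen 1 gave the top WT value 16 times (28.5%). Normalized counts here are counts scaled by TMM-adjusted library size, and a gene was called at an adjusted p below 0.05 with an absolute log2 fold change above 1.

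In the spleen, 6 of the 34 genes were called lower in L2-cKO than in WT and 0 were called higher (quasi-likelihood test of edgeR, p-values adjusted by Benjamini-Hochberg). The lower genes were *Kit*, *Slamf1*, *Hoxa9*, *Hoxa7*, *Myb* and *Gfi1*, and they include the stem cell factor receptor, a stem cell surface antigen, HoxA transcription factors and regulators of progenitor growth. Over all 16911 genes tested, 3.11% were called lower and 2.90% higher, 6.01% in all. DESeq2 also called 0 of the 34 higher. At an unadjusted p below 0.05, 7 were higher and 11 lower by edgeR, where 29.0% of all genes passed in one direction or the other. By DESeq2 8 were higher and 11 lower, where 5128 of the 16911 genes passed in one direction or the other. At an adjusted p below 0.05 whatever the fold change, 3 of the 34 were higher (*Kitl*, *Mecom* and *Mllt3*) and 8 lower (*Adgrg1* and *Cdk6* besides the 6), where 6.89% of all genes were higher and 6.51% lower (13.4% in all). Every L2-cKO spleen lay below every WT spleen for 9 of the 34 genes (10.8% of all genes) and above every WT spleen for 4 (9.61%), and the groups overlapped for 21. The median log2 fold change was -0.16 over the 34 genes and -0.02 over all genes tested. Thus the group did not move as one: 14 log2 fold changes were positive and 20 negative, from -2.16 for *Slamf1* to 0.97 for *Kitl*.

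**Figure D1:**
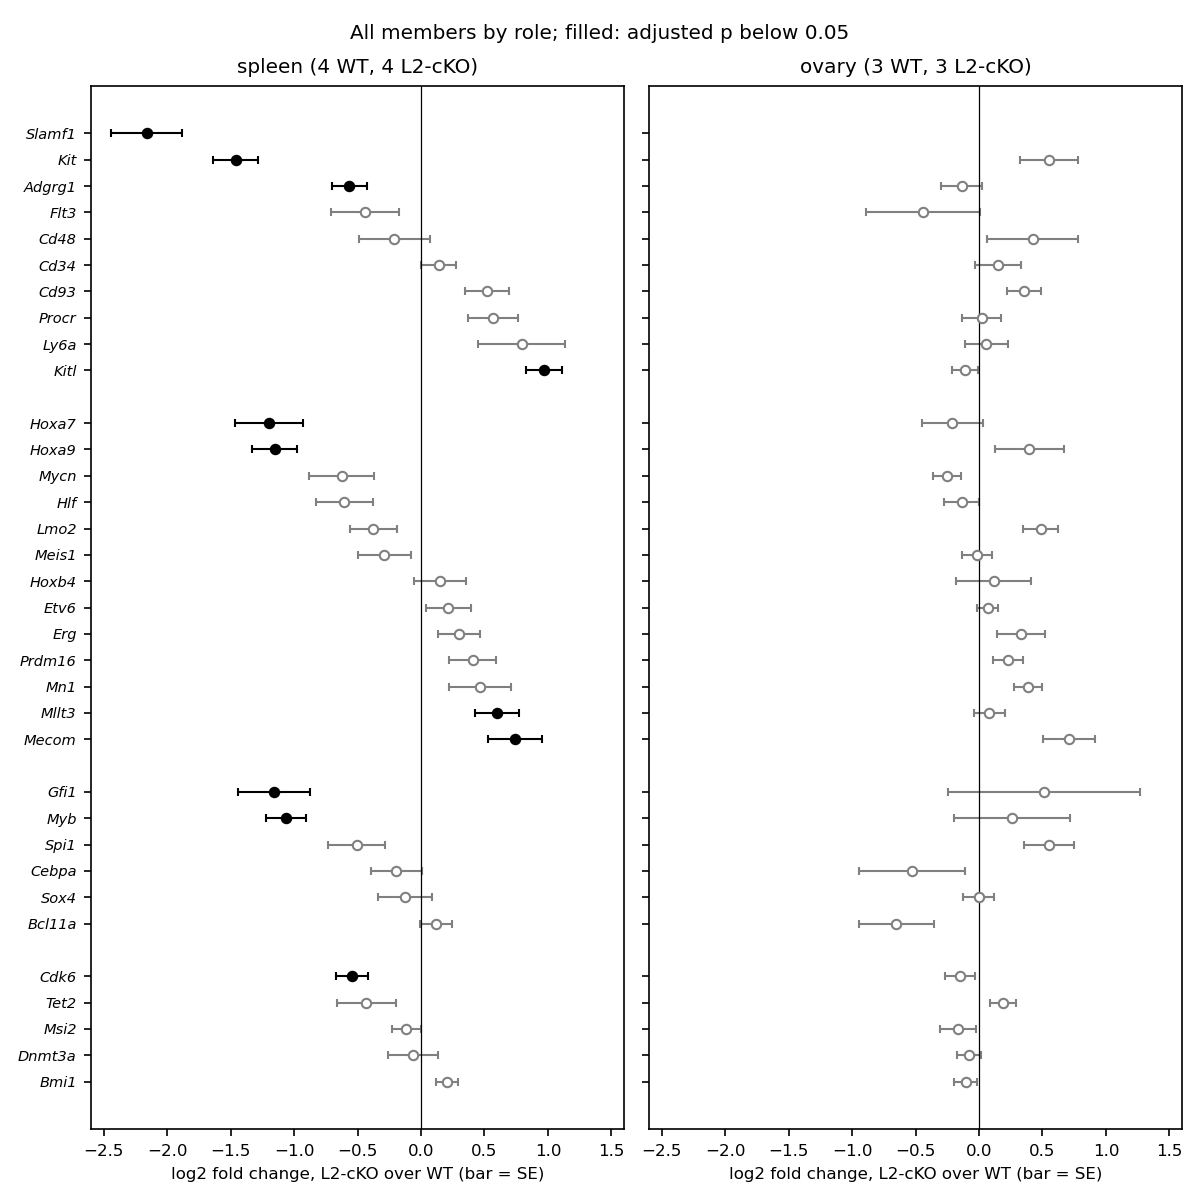
Log2 fold change of L2-cKO over WT for each gene in the spleen (left) and the ovary (right), grouped from top to bottom as surface receptors and antigens, stem cell transcription factors, lineage transcription factors, and chromatin, RNA-binding and cell cycle regulators; points are model estimates, bars are standard errors and filled points have an adjusted p below 0.05. In the spleen 8 filled points lie below 0 and 3 above, and in the ovary there are 0 filled points; *Slamf1* has no ovary value.

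Among the 10 genes for surface receptors, antigens and the Kit ligand, 2 were called lower, and at an adjusted p below 0.05 alone 3 were lower and 1 higher. *Kit* (chr5:75574916-75656722, plus strand), the receptor for stem cell factor, had normalized counts of 2778, 2358, 2736 and 2768 in WT spleens 1 to 4 and 769, 1061, 751 and 1279.9 in L2-cKO spleens 1 to 4. All L2-cKO spleens were below all WT spleens, and the L2-cKO mean was 36.3% of the WT mean (log2 fold change -1.46 ± 0.18 (SE), adjusted p = 0.000832). *Kitl* (chr10:100015630-100100416, plus strand), which encodes its ligand, had normalized counts of 3636, 4447, 4595 and 3327 in WT spleens 1 to 4 and 7075, 8229, 6919 and 9133 in L2-cKO spleens 1 to 4. Here the order was the reverse, with every L2-cKO spleen above every WT spleen and a mean 1.96-fold that of WT (log2 fold change 0.97 ± 0.14 (SE), adjusted p = 0.00249), just inside the fold limit of a call. An exact two-sided permutation test of the normalized counts gave p = 0.0286 for both genes, the smallest p that 4 against 4 libraries allow. It gives this value for any gene whose groups do not overlap, so it restates the lack of overlap and adds no evidence. Of all genes tested, 10.8% had every L2-cKO spleen below every WT spleen and 9.61% had every one above. Receptor and ligand mRNA thus changed in opposite directions in the same libraries: the ratio of *Kit* to *Kitl* in counts per kilobase was 0.507, 0.352, 0.395 and 0.552 in WT spleens 1 to 4 and 0.0721, 0.0855, 0.0720 and 0.0930 in L2-cKO spleens 1 to 4. The highest L2-cKO ratio, 0.0930, was below the lowest WT ratio, 0.352. Mast cells also carry Kit. Of the 11 mast cell and basophil markers other than *Kit*, 7 were called higher and none lower in L2-cKO by edgeR and by DESeq2. Among those called were *Mrgprb1* (3.36), *Tpsab1* (3.23) and *Fcer1a* (3.10) on the log2 scale. The others were not called, and some of these had a negative log2 fold change. The summed normalized counts of all 11 were 2245 to 3627 in WT and 3306 to 16739 in L2-cKO spleens, overlapping only through L2-cKO spleen 3. Of 12 stromal markers, from cells of the kind that make stem cell factor, 3 (*Lum*, *Pdgfra* and *Pdgfrb*) were called higher by both tools and 9 did not pass. The sums of all 12 were 58343 to 69104 in WT and 73178 to 93063 in L2-cKO, without overlap. The part of either cell type in these results was not tested.

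*Slamf1* (CD150, an antigen used to sort long-term stem cells, also on megakaryocytes and lymphocytes) fell furthest of the group, with normalized counts of 456, 451, 243 and 390.1 in WT spleens 1 to 4 and 96.0, 73.1, 56.5 and 117 in L2-cKO spleens 1 to 4. The groups were far apart, and the L2-cKO mean was 22.2% of WT (log2 fold change -2.16 ± 0.28 (SE), adjusted p = 0.00117). *Cd48*, which encodes a related antigen absent from the most primitive stem cells, overlapped between the groups, at 1322 ± 474 (SD, n = 4) in WT and 1142 ± 345 (SD, n = 4) in L2-cKO (log2 fold change -0.21, adjusted p = 0.66). *Adgrg1* (GPR56, an adhesion receptor of stem cells and other cells) had 4113, 5395, 4913 and 5835 in WT spleens 1 to 4 and 3229, 3872, 3754 and 2844 in L2-cKO spleens 1 to 4. Its groups did not overlap either, but the change was smaller (log2 fold change -0.56 ± 0.14 (SE), adjusted p = 0.028). *Flt3*, the cytokine receptor of multipotent and lymphoid progenitors, had 623, 357, 375 and 322 in WT spleens 1 to 4 and 277, 284, 219 and 454 in L2-cKO spleens 1 to 4. WT spleen 1 was the highest and L2-cKO spleen 4 lay above the other WT spleens, so the groups overlapped (log2 fold change -0.44 ± 0.27 (SE), adjusted p = 0.315). *Cd34*, a sialomucin of progenitors and endothelium, had 1697, 1753, 1398 and 1729 in WT spleens 1 to 4 and 1651, 1849, 1524 and 2221 in L2-cKO spleens 1 to 4. These values overlapped (log2 fold change 0.14 ± 0.14 (SE), adjusted p = 0.539).

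The remaining surface genes of the group were higher on average in L2-cKO without passing the test. *Procr* (EPCR, an antigen of stem cells and of endothelium) had 362, 388, 218 and 341 in WT spleens 1 to 4 and 439, 466, 437 and 592 in L2-cKO spleens 1 to 4, with no overlap (log2 fold change 0.56 ± 0.20 (SE), adjusted p = 0.088). *Cd93* was at 3067 ± 612 (SD, n = 4) in WT and 4391 ± 898 (SD, n = 4) in L2-cKO (0.52, adjusted p = 0.0768) and *Ly6a* (Sca-1) at 1127 ± 364 (SD, n = 4) in WT and 1953 ± 1055 (SD, n = 4) in L2-cKO (0.79, adjusted p = 0.161), and for both of them the value of L2-cKO spleen 4 was well above the other L2-cKO spleens. Without that library the log2 fold change of *Ly6a* was 0.34 and that of *Cd93* 0.37. Several of these genes are also endothelial. Of the 16 endothelial markers, 2 were higher and 1 lower at an adjusted p below 0.05. The lower one was *Vwf* (log2 fold change -1.03), which is also on the list of megakaryocyte and platelet markers. Summed normalized counts of the 16 were 39883 to 54545 in WT and 53781 to 77072 in L2-cKO, and they overlapped. The part of endothelial cells in these values was not tested.

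Of the 13 transcription factors of stem cells, 2 were called lower and 0 higher. At an adjusted p below 0.05 alone, 2 were lower and 2 higher, and 9 passed in neither direction. *Hoxa9* (chr6:52223100-52231089, minus strand), a HoxA factor of stem and myeloid progenitor cells, had normalized counts of 89.6, 96.0, 95.4 and 82.9 in WT spleens 1 to 4 and 42.8, 38.8, 38.0 and 43.5 in L2-cKO spleens 1 to 4. The values were low but tight, and the groups were apart by more than their spread (L2-cKO mean 44.8% of WT, log2 fold change -1.15 ± 0.18 (SE), adjusted p = 0.00315). *Hoxa7*, its neighbour in the cluster, had 94.3, 64.7, 67.6 and 48.5 in WT spleens 1 to 4 and 37.6, 26.6, 22.8 and 32.4 in L2-cKO spleens 1 to 4. It was also lower without overlap (log2 fold change -1.20 ± 0.27 (SE), adjusted p = 0.0178), whereas *Hoxb4*, a gene of the HoxB cluster, ranged from 101 to 168 in WT and from 139 to 194 in L2-cKO, with overlap (log2 fold change 0.15, adjusted p = 0.668). *Meis1*, the homeodomain partner of Hox proteins, had 679, 926, 556 and 753 in WT spleens 1 to 4 and 555, 625, 423 and 777 in L2-cKO spleens 1 to 4. Its groups overlapped (log2 fold change -0.29 ± 0.21 (SE), adjusted p = 0.389).

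*Hlf*, a bZIP factor of immature stem cells, had 179, 131, 131 and 119 in WT spleens 1 to 4 and 81.4, 111, 67.3 and 109.1 in L2-cKO spleens 1 to 4. Every L2-cKO value was below every WT value, but the change did not pass the test over all genes (log2 fold change -0.60 ± 0.22 (SE), adjusted p = 0.106). *Mecom* (Evi1), a zinc finger factor of stem cells and endothelium, had 229, 189.9, 137 and 196 in WT spleens 1 to 4 and 261, 266, 314 and 419 in L2-cKO spleens 1 to 4. In contrast to *Hlf* it was higher in every L2-cKO spleen (log2 fold change 0.74 ± 0.21 (SE), adjusted p = 0.0472), and 5 unconfirmed annotated loci on the same strand overlap its gene body. *Mllt3* (AF9), a transcription elongation factor that maintains stem cells, had 3066, 3377, 3967 and 4168 in WT spleens 1 to 4 and 6116, 5558, 6602 and 3852 in L2-cKO spleens 1 to 4. L2-cKO spleens 1 to 3 were above all WT spleens and L2-cKO spleen 4 was among them (log2 fold change 0.60 ± 0.17 (SE), adjusted p = 0.0475).

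The other stem cell transcription factors passed in neither direction and overlapped between the groups. *Prdm16* (0.41), *Erg* (0.30), *Mn1* (0.47) and *Etv6* (0.22) had positive log2 fold changes, and *Lmo2* (-0.38) and *Mycn* (-0.63) negative ones, with adjusted p values from 0.14 for *Mycn* to 0.461 for *Etv6*. *Lmo2*, a bridging subunit of blood transcription complexes that is also used by erythroid cells, was the most abundant, at 18352 ± 2835 (SD, n = 4) in WT and 14121 ± 3142 (SD, n = 4) in L2-cKO normalized counts, and its lowest value of all libraries was 9676 in L2-cKO spleen 4.

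Of the 6 lineage and progenitor transcription factors, 2 were called lower and 0 higher. *Myb* (chr10:21124935-21160984, minus strand), which maintains the growth of progenitors, had normalized counts of 4789, 4097, 4732 and 4044 in WT spleens 1 to 4 and 2077, 2599, 1521 and 2249 in L2-cKO spleens 1 to 4. The L2-cKO mean was 47.8% of WT and the groups did not overlap (log2 fold change -1.06 ± 0.16 (SE), adjusted p = 0.00257). *Gfi1*, a repressor that acts in stem cells and in granulocyte differentiation, had 413, 416, 464 and 356 in WT spleens 1 to 4 and 222, 197, 82.6 and 234 in L2-cKO spleens 1 to 4. It was lower in every L2-cKO spleen and lowest in L2-cKO spleen 3 (log2 fold change -1.16 ± 0.28 (SE), adjusted p = 0.026). *Spi1* (PU.1), the master factor of myeloid cells, was at 3436 ± 464 (SD, n = 4) in WT and 2418 ± 842 (SD, n = 4) in L2-cKO (-0.51, adjusted p = 0.17), and *Cebpa* (-0.20), *Sox4* (-0.12) and *Bcl11a* (0.12) had adjusted p values of 0.554, 0.739 and 0.583. Granulocytes and their precursors express several of these genes, and their markers were lower in L2-cKO: 13 of 15 were called lower and none higher by both tools, led by *Camp* (-2.81), *Elane* (-2.54) and *Ngp* (-2.22) on the log2 scale. Their summed normalized counts were 186482 to 298031 in WT and 12792 to 72478 in L2-cKO spleens, lowest in L2-cKO spleen 3. The part of these cells in the values of *Gfi1*, *Myb*, *Kit* and *Hoxa9* was not tested.

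Among the 5 chromatin, RNA-binding and cell cycle regulators, *Cdk6*, a kinase that drives stem cells out of quiescence, was the gene that passed the test. It had normalized counts of 3872, 3657, 4519 and 3395 in WT spleens 1 to 4 and 2240.2, 2867, 2512 and 2985 in L2-cKO spleens 1 to 4, with every L2-cKO spleen below every WT spleen (log2 fold change -0.54 ± 0.13 (SE), adjusted p = 0.022). *Bmi1*, a Polycomb subunit needed for self-renewal, had 1949, 1874, 2024 and 1747 in WT spleens 1 to 4 and 2173, 2178, 2233 and 2161 in L2-cKO spleens 1 to 4. The L2-cKO spleens were all higher, by a small amount that did not pass (log2 fold change 0.20 ± 0.09 (SE), adjusted p = 0.164). *Msi2* (-0.12), an RNA-binding protein of stem cells, *Tet2* (-0.43), a methylcytosine oxidase, and *Dnmt3a* (-0.07), a DNA methyltransferase, overlapped between the groups, with adjusted p values of 0.538, 0.254 and 0.858. Of 13 proliferation markers, 0 passed an adjusted p of 0.05 in either direction by edgeR or DESeq2, and 1 had an unadjusted p below 0.05.

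**Figure D2:**
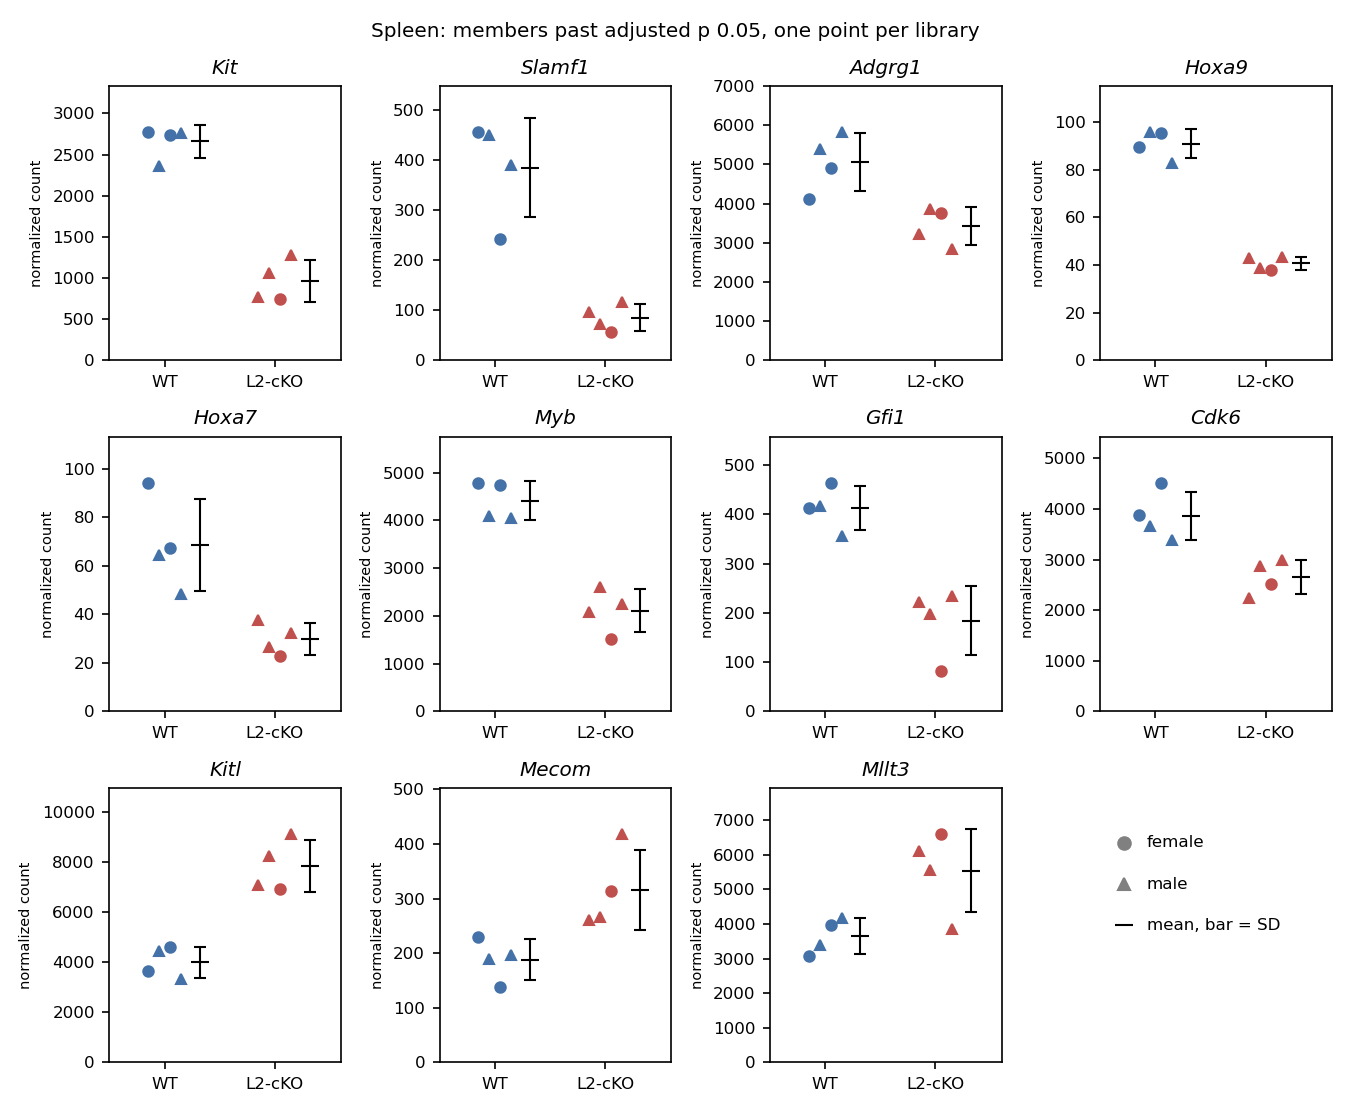
Normalized counts per spleen library for the 11 genes with an adjusted p below 0.05; each point is 1 library (circle female, triangle male), the dash is the group mean and the bar its SD, and each y axis starts at 0. For every gene but *Mllt3* the L2-cKO points lie all below or all above the WT points; L2-cKO spleen 4 is the *Mllt3* point inside the WT range.

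Leaving out each library in turn, *Kit*, *Slamf1* and *Hoxa9* were called lower in 8 of 8 fits and *Kitl* was past an adjusted p of 0.05 in 8 of 8. *Myb* was past it in 8 of 8, with its log2 fold change inside the limit (-0.93) without L2-cKO spleen 3. *Hoxa7* lost the call without L2-cKO spleen 2 (adjusted p = 0.0597). *Gfi1* stood nearer the limits: its adjusted p was 0.0512, 0.0621, 0.0664 and 0.0536 without L2-cKO spleen 1, L2-cKO spleen 2, WT spleen 2 or WT spleen 4, and its log2 fold change was -0.91 without L2-cKO spleen 3.

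The smaller changes depended on single libraries. *Adgrg1* lost its adjusted p below 0.05 without L2-cKO spleen 1 (0.0912), WT spleen 2 (0.0824) or WT spleen 4 (0.0922), and *Cdk6* without L2-cKO spleen 1 (0.0746) or 3 (0.0545). *Mecom* held it in 1 of 8 fits, without WT spleen 1 (0.0432), and its highest adjusted p was 0.108 without WT spleen 4. *Mllt3* held it in 1 of 8, without L2-cKO spleen 4 (0.00504), and reached 0.129 without L2-cKO spleen 1. The sexes were unevenly spread over the genotypes. Among males alone (2 WT and 3 L2-cKO spleens), *Kit* (-1.30, adjusted p = 0.0122), *Slamf1* (-2.13, 0.00322) and *Hoxa9* (-1.10, 0.0231) were called lower and *Kitl* (1.07, 0.014) was called higher, while *Myb* (-0.82, 0.0111) and *Gfi1* (-0.82, 0.0229) were inside the fold limit and *Hoxa7* (-0.81, 0.0933) passed neither limit. The spleens of females alone were not compared.

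**Figure D3:**
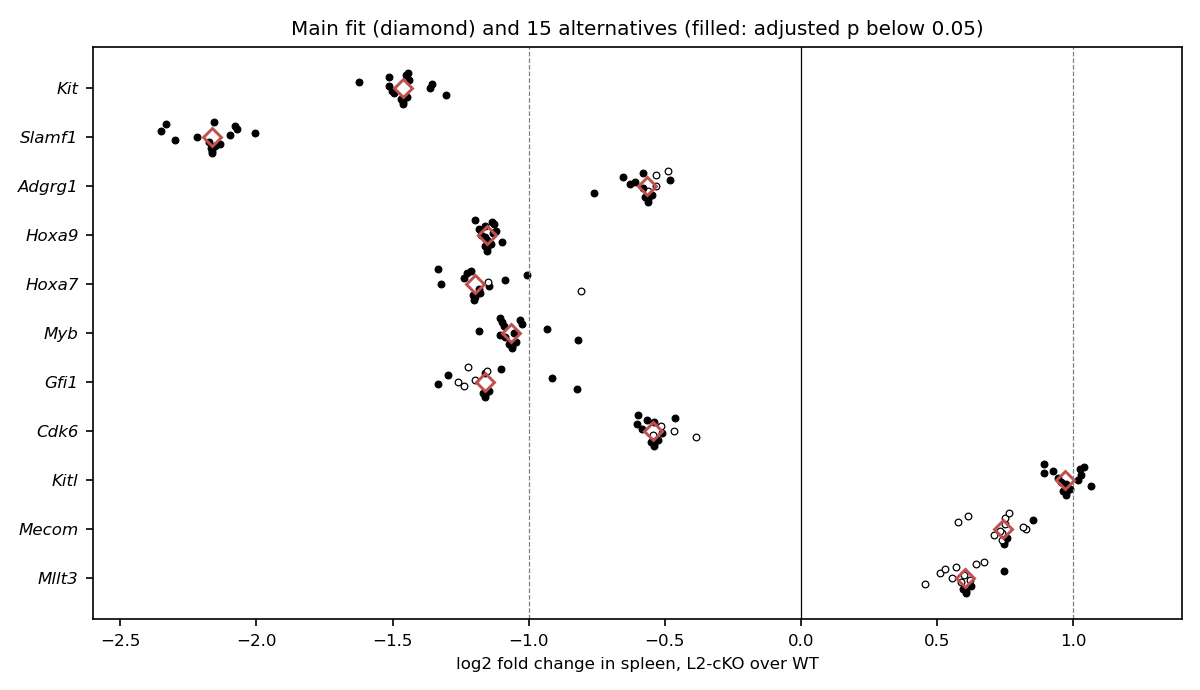
Log2 fold change in the spleen of the 11 genes in the reported fit (diamond) and under 15 alternatives (circles, filled where the adjusted p is below 0.05), with dashed lines at the fold limits of a call. Every circle lies on the same side of 0 as its diamond; *Kit*, *Slamf1* and *Hoxa9* are filled and beyond the lower limit throughout, and *Mecom* and *Mllt3* are mostly open.

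Further stem and progenitor genes outside the 34 were taken from a list of 50, of which 49 were tested in the spleen. Of these 1 was called higher and 4 lower, 2 were higher and 8 lower at an adjusted p below 0.05, and their median log2 fold change was -0.08. Among those called lower were *Trpc6*, a calcium channel, at -3.61 and *Elane*, neutrophil elastase, at -2.54 on the log2 scale. Of 24 niche factors and their receptors tested, 2 were called higher and 2 lower, with a median log2 fold change of 0.24. The higher ones were *Pdgfra*, a receptor of stromal cells (1.59), and *Spp1*, osteopontin (1.28). Megakaryocyte and platelet markers were called lower for 13 of 14 (by DESeq2 too), with sums of 46277 to 79797 in WT and 12119.9 to 23948 in L2-cKO spleens and no overlap. *Slamf1* and *Mecom* are also expressed by megakaryocytes, *Slamf1* being lower and *Mecom* higher, and the part of these cells was not tested. In the other lists fewer genes moved: 1 of 16 erythroid markers was called lower (*Car1*), 1 of 12 macrophage and monocyte markers higher and 2 lower, 1 of 11 dendritic cell markers lower, 1 of 9 natural killer markers in each direction, and 0 of 11 B cell, 0 of 10 B cell progenitor and 0 of 10 T cell markers in either direction. Of the B cell, B cell progenitor and T cell markers, 0 passed an adjusted p of 0.05 by edgeR, and 1 did by DESeq2. It was also the 1 with an unadjusted p below 0.05 by edgeR: *Cd93*, of the B cell progenitor list and itself among the 34 genes.

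Levels were compared between genes as RPKM, the counts per kilobase of exon divided by the library total. In WT spleen *Lmo2* stood first, at 196 ± 23.3 (SD, n = 4), followed by *Spi1* (29.6 ± 4.41), *Cd48* (25.8 ± 9.64), *Ly6a* (21.7 ± 7.28) and *Adgrg1* (21.6 ± 2.42). *Kitl* was 6th at 15.7 ± 2.72, *Myb* 7th at 11.5 ± 1.49 and *Kit* 12th at 6.92 ± 0.667. The lowest were *Hoxa9* (0.378 ± 0.0352), *Mn1* (0.364 ± 0.0299) and *Mecom* (0.350 ± 0.0722). Of the 33 pairs of neighbours in this order, 30 had overlapping ranges over the WT libraries, and the exceptions were *Lmo2* above *Spi1*, *Dnmt3a* above *Procr* and *Gfi1* above *Mycn*. In L2-cKO spleen *Kitl* was 3rd at 30.9 ± 6.90 (SD, n = 4), *Myb* 16th at 5.52 ± 1.46 and *Kit* 21st at 2.55 ± 0.896.

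In the ovary, a tissue without blood formation, 0 of the 33 genes measured reached an adjusted p below 0.05 (limma with Benjamini-Hochberg adjustment), where 1.58% of the 18504 genes tested did, 1.23% as higher and 0.351% as lower. With the limit on the fold change 0.957% of all genes were called, 0.730% higher and 0.227% lower. Of the 33, 6 had an unadjusted p below 0.05 (16.8% of all genes did), all of them higher in L2-cKO, the smallest adjusted p was 0.143, and edgeR on the recovered reads also gave 0, with the same number at an unadjusted p below 0.05. The L2-cKO ovaries were all above the WT ovaries for 5 genes (13.2% of all genes) and all below for 2 (12.0%), and 26 overlapped. The median log2 fold change was 0.07, against -0.0042 over all genes tested. Fold changes of the ovary are on the scale of log2(normalized value + 1), which understates those of genes with low values. With 3 libraries a group, the standard errors ran from 0.09 to 0.76 over the 33 genes, so changes of the size seen for *Adgrg1* or *Cdk6* in the spleen were not detectable for the noisier genes.

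*Kit* is expressed in the ovary by oocytes and *Kitl* by the granulosa cells around them. *Kit* had normalized values of 7459, 9135 and 8248 in WT ovaries 1 to 3 and 10326, 18081 and 9428 in L2-cKO ovaries 1 to 3. All L2-cKO ovaries were above all WT ovaries, L2-cKO ovary 2 by the most, and the difference did not pass the test (log2 fold change 0.55 ± 0.23 (SE), adjusted p = 0.288). Without L2-cKO ovary 2 the log2 fold change was 0.26. *Kitl* had 12735, 11998 and 12045 in WT ovaries 1 to 3 and 10772, 13144 and 10295 in L2-cKO ovaries 1 to 3, with overlap (log2 fold change -0.11 ± 0.10 (SE), adjusted p = 0.615). *Mecom* had 226, 246 and 223 in WT ovaries 1 to 3 and 382, 501 and 286 in L2-cKO ovaries 1 to 3. It was higher in every L2-cKO ovary, as in the spleen, by 0.71 ± 0.20 (SE) on the log2 scale (adjusted p = 0.147). *Lmo2* (0.48), *Mn1* (0.39) and *Spi1* (0.55) were the other genes with all L2-cKO ovaries above WT, and *Mycn* (-0.25) and *Bcl11a* (-0.65) those with all below, with adjusted p values of 0.143 to 0.32. Summed endothelial markers, at 23743 to 25032 in WT and 28878 to 33357 in L2-cKO, and summed macrophage and monocyte markers, at 2885 to 3436 in WT and 3966 to 4977 in L2-cKO ovaries, did not overlap either and were higher in L2-cKO, and their part in these values was not tested.

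*Flt3* had 15.8, 10.9 and 10.1 in WT ovaries 1 to 3 and 6.26, 6.17 and 15.9 in L2-cKO ovaries 1 to 3, *Myb* 15.8, 46.8 and 40.4 in WT ovaries 1 to 3 and 25.0, 46.2 and 45.5 in L2-cKO ovaries 1 to 3 and *Hlf* 849, 699 and 684 in WT ovaries 1 to 3 and 747, 577 and 707 in L2-cKO ovaries 1 to 3. *Cd34* had 12258, 8973 and 8560.4 in WT ovaries 1 to 3 and 12817, 8677 and 11501 in L2-cKO ovaries 1 to 3, and *Meis1* 1426, 1309 and 1725 in WT ovaries 1 to 3 and 1359, 1436 and 1602 in L2-cKO ovaries 1 to 3. The groups overlapped for each of these 5 genes, whose adjusted p values were 0.663, 0.811, 0.649, 0.718 and 0.963. In RPKM, *Kitl* was the most abundant of the 33 in WT ovary at 56.0 ± 1.09 (SD, n = 3), followed by *Adgrg1* (44.8 ± 3.44), *Sox4* (37.5 ± 3.74), *Cd34* (36.7 ± 6.75) and *Kit* (25.1 ± 2.80), and *Flt3* was the lowest at 0.0535 ± 0.0125, which rests on as few as 6 reads in a library. *Kitl* and *Adgrg1* did not overlap in range, nor did *Adgrg1* and *Sox4*, whereas *Sox4* and *Cd34* did. The tables of the organs were made separately, so organ and batch cannot be told apart for these levels.

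Whether the genotype effect differed between the organs was tested in 1 edgeR fit of the spleen counts and the recovered ovary reads. Of the 33 genes, 3 were called, where 3.39% of the 18580 genes tested were, 1.39% with the more positive effect in the spleen and 2.00% with the more negative one. The same 3 were those past an adjusted p of 0.05 (5.22% of all genes): the spleen effect minus the ovary effect was -2.04 ± 0.30 (SE, adjusted p = 0.00117) for *Kit*, -1.53 ± 0.32 (SE, adjusted p = 0.0119) for *Hoxa9* and 1.10 ± 0.19 (SE, adjusted p = 0.00349) for *Kitl*, on the log2 scale. For *Kit* and *Hoxa9* the spleen effect was the more negative one and for *Kitl* the more positive one. The other genes that changed in the spleen did not differ between organs past the threshold. Their differences were -1.16 ± 0.38 (SE, adjusted p = 0.0957) for *Myb*, -0.97 ± 0.37 (SE, adjusted p = 0.154) for *Hoxa7*, -1.87 ± 0.78 (SE, adjusted p = 0.189) for *Gfi1*, 0.54 ± 0.24 (SE, adjusted p = 0.224) for *Mllt3*, -0.42 ± 0.24 (SE, adjusted p = 0.339) for *Adgrg1* and -0.37 ± 0.18 (SE, adjusted p = 0.262) for *Cdk6*. *Slamf1* was not in the ovary table. *Mecom*, whose L2-cKO mean was above WT in both organs but did not pass the test in the ovary, had a difference of 0.02 ± 0.33 (SE, adjusted p = 0.999). Each of the calls of *Kit*, *Kitl* and *Hoxa9* was kept when any of the 14 libraries was left out, and also when the animal that gave both organs was left out. Without L2-cKO spleen 4, *Spi1* (-1.32, adjusted p = 0.00664) was called as well, and *Mllt3* (0.0354), *Lmo2* (0.0343) and *Tet2* (0.0406) had an adjusted p below 0.05. The female libraries alone hold 1 L2-cKO spleen, which was assumed to vary like the other groups. There *Kit* was called (-2.41, adjusted p = 0.0243), *Hoxa9* did not pass (adjusted p = 0.117) and *Kitl* passed with a difference of 0.93 (adjusted p = 0.044), and *Spi1* (-1.71, 0.0197) and *Tet2* (-1.13, 0.027) were called too.

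The *Kit* to *Kitl* ratio per kilobase was similar in WT spleen and WT ovary, at 0.451 ± 0.0936 (SD, n = 4) and 0.449 ± 0.0584 (SD, n = 3). In L2-cKO it was 0.0806 ± 0.0104 (SD, n = 4) in the spleen, below every WT value, and 0.719 ± 0.169 (SD, n = 3) in the ovary, above every WT value. The ovary values were 0.389, 0.505 and 0.454 in WT and 0.636, 0.913 and 0.607 in L2-cKO. A ratio taken within a library does not depend on how the library was scaled.

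**Figure D4:**
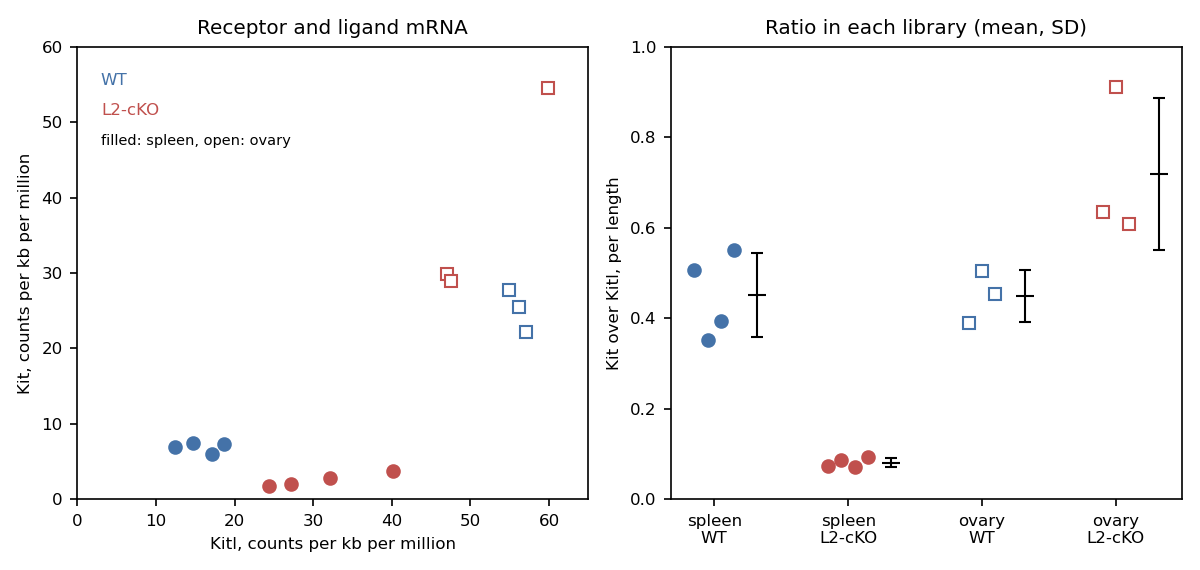
Left, *Kit* against *Kitl* in RPKM (counts per kilobase of exon over the library total), 1 point per library (filled spleen, open ovary); right, their ratio in each library with the group mean and SD. The 4 L2-cKO spleens lie lower on the *Kit* axis and further along the *Kitl* axis than the 4 WT spleens, and their ratios, 0.0720 to 0.0930, are below those of all other libraries.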

How the data were processed

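Poly(A) RNA libraries of 8 spleens and 6 ovaries were analysed. Per the submitters' processing notes, reads were trimmed with Trimmomatic 0.36, aligned to GRCm38 with STAR 2.5.2b and counted per gene with featureCounts of Subread 1.5.2; the study states that the ovary was sequenced by the same technique. For the spleen, the authors deposited raw counts per gene and a signal table of normalized values, which equals the counts divided by 1 constant per library. For the ovary the deposited values are such normalized signal values only, inside the table of the comparison; they are whole multiples of 1 read, and 100.0% of values came out whole within 0.001 read. Columns with the authors' fold changes and p-values were not used, nor the per-sample columns of the spleen comparison table, which repeat the normalized values.

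Spleen counts were tested with edgeR 4.0.16 (quasi-likelihood, TMM, at least 10 counts in at least 4 libraries) under R 4.3.3. Ovary values were tested with limma 3.58.1 (intensity trend) on log2(value + 1), for genes with at least 10 in at least 3 libraries. The organs were compared in 1 edgeR fit over 14 libraries. p-values were Benjamini-Hochberg adjusted over all genes tested, and replicates are separate animals. Alternatives were DESeq2 1.42.0, RLE size factors, other filters and pseudocounts, sex, the replicate number as a block and leaving out each library. Pipelines were tested on simulated counts. The 34 genes, the lists and the tests were chosen with earlier results of these data known. Values per library are given for genes past an adjusted p of 0.05, for those whose spleen groups did not overlap and for *Kit*, *Kitl*, *Flt3*, *Cd34*, *Meis1*, *Hlf*, *Mecom* and *Myb*; other genes are named from the lists, at most 3 per list by size of change among called genes, and the markers of the organs were chosen after other values were seen. Values of some list genes are not reported here. Identifiers were paired with symbols and exon lengths through GENCODE mouse release 21, which holds 49056 of the 49315. WT spleen 4 is the second spleen that carries the number 3 in its title.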

Additional observations from a re-analysis of the deposited data

Results flagged for a closer look

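Within each genotype of the spleen, the highest and the lowest library of each of the 34 genes were set against the other 3, over 68 groups of 4 libraries in all; a rule of this kind flags about 1 in 20 groups by chance, and it flagged 5. *Kit* was at 2358 normalized counts in WT spleen 2, below the other WT spleens, and without that library its log2 fold change was -1.51. *Cd34* was at 1398 in WT spleen 3, below the other WT spleens. *Ly6a* was at 3534 in L2-cKO spleen 4, above the other 3 of its group. *Cd93* was at 3979.7 in WT spleen 1 and at 5725 in L2-cKO spleen 4, in each case above the rest of the group. Without WT spleen 1 *Cd93* was higher at an adjusted p of 0.0272, and without L2-cKO spleen 4 the adjusted p was 0.105.

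For 3 genes the genotype effect differed between spleen and ovary by a test of the difference itself (edgeR's quasi-likelihood test of the interaction): the spleen effect minus the ovary effect was -2.04 for *Kit*, 1.10 for *Kitl* and -1.53 for *Hoxa9* on the log2 scale.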

How the results depend on the processing

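In the spleen the counts called higher and lower among the 34 genes (0 and 6) became 1 and 3 in males alone and 0 to 1 and 4 to 6 when each library was left out, the gene called higher being *Kitl*. Of the genes at an adjusted p below 0.05, the 3 higher became 5 with DESeq2, 1 with sex as a covariate and 1 to 3 without 1 library (*Kitl* alone without L2-cKO spleen 1 or 2 or WT spleen 2, 3 or 4), and the 8 lower became 5 to 10 without 1 library (5 without L2-cKO spleen 1). With the replicate number as a block, for which the second spleen titled WT3 was taken as number 4, 1 was higher and 5 lower, and the adjusted p was 0.0587 for *Gfi1*, 0.0676 for *Adgrg1*, 0.073 for *Cdk6*, 0.0977 for *Mecom* and 0.111 for *Mllt3*. The study describes age-matched pairs of spleens without naming them, so the numbers used as a block may not match these pairs. The reported fits did not pair the animals by number. Same-numbered spleens had correlations of -0.14, 0.09, 0.18 and -0.29 between their deviations from the group means, and differently numbered ones -0.29 to 0.44. Same-numbered ovaries had 0.38, 0.21 and 0.07, and differently numbered ones -0.33, 0.04, -0.15, -0.12, -0.31 and 0.18. Whether the ovary numbers mark pairs was not tested. With them as a block, limma called 187 genes of all higher. Of the 33 genes, 10 had an unadjusted p below 0.05, and the smallest adjusted p was 0.0526. With no limit on the fold change, 1166 genes of all were higher and 1101 lower in the spleen and 227 and 65 in the ovary, where the 135 called higher became 28 to 126 and the 42 called lower 4 to 72 without 1 library (fewest without WT ovary 2, and each WT ovary and L2-cKO ovaries 1 and 3 lowering the first count over 1.5 times) and 81 were called lower with the replicate block. For the difference between organs, the 1 gene called higher became 0 in females alone and the counts at an adjusted p below 0.05 were 1 to 2 higher and 2 to 5 lower without 1 library (most without L2-cKO spleen 4); over all genes the 630 called became 393 to 862 without 1 library (fewest without WT ovary 1) and 970 with no fold limit. Some genes that did not pass the test changed sign. Without 1 library these were 3 in the spleen, with log2 fold changes of -0.42 to 0.014 (*Cd48*), -0.30 to 0.033 (*Sox4*, with 0.016 without WT spleen 1) and -0.29 to 0.077 (*Dnmt3a*), and 12 in the ovary, with -0.25 to 0.056 (*Adgrg1*), -0.10 to 0.098 (*Meis1*), -0.39 to 0.0020 (*Hoxa7*), -0.00077 to 0.20 (*Mllt3*), -0.21 to 0.55 (*Myb*), -0.27 to 1.12 (*Gfi1*), -0.033 to 0.11 (*Procr*), -0.064 to 0.17 (*Ly6a*), -0.061 to 0.41 (*Hoxb4*), -0.0066 to 0.11 (*Etv6*), -0.85 to 0.030 (*Cebpa*) and -0.11 to 0.084 (*Sox4*). In male spleens alone *Cebpa* (0.049), *Sox4* (0.14), *Msi2* (0.063), *Tet2* (0.0011) and *Dnmt3a* (0.16) were positive. The difference between organs of *Mecom* ranged over -0.17 to 0.24 without 1 library and was -0.0040 without the shared animal. The cause of these shifts was not tested. Over the spleen and ovary values of each gene and the differences between organs of the 10 genes named for them, 960 values under an alternative kept direction and side of the threshold, 37 fell short of it and 12 passed it anew. The fits that left out single libraries for the difference between organs were chosen after the data were seen. Some genes had few reads in the ovary, such as *Flt3*, *Myb* and *Gfi1*, with as few as 6, 13 and 17 in a library, and their values there are less certain.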

Other observations

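Among the wider lists, niche factors and T cell markers held a called gene in the ovary. Of 22 niche factors and receptors tested there, *Jag1*, a Notch ligand, was called higher in L2-cKO ovaries, at 7247 to 8618 normalized values against 2623 to 2926 in WT (log2 fold change 1.52, adjusted p = 0.000642 by limma). In the spleen *Jag1* had a log2 fold change of 0.35 (adjusted p = 0.271). *Cd4* was the 1 gene of 5 T cell markers tested that was called, at 189.6 to 315 against 46.8 to 60.8 (log2 fold change 2.12), while the summed T cell markers overlapped. Of the 44 other stem and progenitor genes tested in the ovary by limma, 0 were called or past an adjusted p of 0.05.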
